A study of Mus musculus with 22 samples.

Results

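MHC class II molecules present peptides from endosomes to CD4 T cells, and B cells carry them from the late stages of their development in the marrow onward. The 10 genes described here are the chains of the peptide-binding molecules I-A and I-E (H2-Aa, H2-Ab1 and H2-Eb1), the invariant chain Cd74, the peptide-loading chaperone DM (H2-DMa, H2-DMb1 and H2-DMb2), its modulator DO (H2-Oa and H2-Ob) and Ciita, the class II transactivator. They were chosen by name, matched by symbol to 10 of the 52636 gene identifiers of the count table, and followed in all 22 mouse lymphoma libraries. All 10 passed the filter on low counts in every comparison.

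The study sequenced B-lineage lymphomas that arose in mice on a mixed 129/C57Bl6 background, each carrying p53fl/fl and Mb1Cretg/+, in which Cre driven from the B lineage gene Mb1 (Cd79a) deletes p53 in B-lineage cells. The tumours with the genotype R26-Ccnd2tg/tg;p53fl/fl;Mb1Cretg/+ also carry a Ccnd2 (cyclin D2) transgene at Rosa26, and the immunophenotype in the labels divides them into MCL-like, after human mantle cell lymphoma, and non-MCL. Primary tumours comprised 4 MCL-like mice, 3 non-MCL mice of that genotype ("Ccnd2 non-MCL") and 7 libraries from 6 mice of the genotype p53fl/fl;Mb1Cretg/+, all non-MCL ("p53-only"; replicates 2 and 5 came from 1 mouse). Transplants into NSG mice, which lack mature T, B and NK cells but keep myeloid cells, comprised 6 MCL-like libraries from 4 primary mice and 2 Ccnd2 non-MCL libraries from 1 primary mouse. The titles of the 6 MCL-like transplants call them non-MCL, so their group rests on the immunophenotype field alone. The set holds no normal B cells.

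Class II genes are transcribed largely where Ciita is present. Ciita binds no DNA itself: it docks on a complex of RFX, CREB and NF-Y proteins assembled on a conserved pair of promoter elements, the X and Y boxes, and its own supply is the switch. In B cells Ciita is made from a B-lineage promoter, in most other cells after interferon gamma, and it is shut off when a B cell becomes a plasma cell. Newly made alpha and beta chains bind the invariant chain, whose remnant in the groove is later exchanged for peptide by DM, and DO restrains DM. The b haplotype of C57BL/6 mice makes no I-E alpha chain, and the I-E alpha locus, listed as the pseudogene H2-Ea-ps, had 0 counts in all 22 libraries.

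The promoters of the members show the element these genes share. RefSeq promoter sequences of GRCm38.p6, from 250 bases before to 50 bases after the start of transcription, were at hand for 7 of the 10 genes: H2-Aa, H2-Eb1, H2-DMa, H2-DMb1, H2-DMb2, H2-Oa and H2-Ob. The letters TGATTGG, the core of the Y box, stood on either strand in 6 of these 7 and in 7.82% of all 32851 promoters of the same length. GCAAC, a core of the X box, stood in 5 of 7 and in 35.2% of all, and GATGATG, from the adjoining part of the X box, in 3 of 7 and in 3.48%. Either X form starting 15 to 45 bases before TGATTGG on the same strand was found in 6 of 7 and in 0.314% of all promoters (103 of 32851), and H2-DMa was the member without it. These letters were chosen with the sequences in view, so the shares are descriptions. The windows below, 1 from each of 5 of these promoters, show the pair in capitals, 5′ to 3′ toward the gene. The H2-Aa window lies on the minus strand at chr17:34287867-34287921, in no annotated gene. The H2-Eb1 window lies on the plus strand at chr17:34305758-34305812, outside exons and within the overlapping gene model Gm20513. The H2-Ob window lies on the plus strand at chr17:34238798-34238852, in no annotated gene. The H2-Oa window lies on the plus strand at chr17:34092286-34092340, and its last base is the first base of the annotated gene. The H2-DMb2 window lies on the plus strand at chr17:34145109-34145163, inside the annotated extent of H2-DMb2 but outside its exons.
H2-Aa: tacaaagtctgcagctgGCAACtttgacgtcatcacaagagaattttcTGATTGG
H2-Eb1: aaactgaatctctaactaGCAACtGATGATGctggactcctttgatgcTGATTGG
H2-Ob: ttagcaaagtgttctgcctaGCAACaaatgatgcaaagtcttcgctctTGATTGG
H2-Oa: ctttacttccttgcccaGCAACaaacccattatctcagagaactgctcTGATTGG
H2-DMb2: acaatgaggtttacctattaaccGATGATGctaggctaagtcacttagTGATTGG
In H2-Aa, H2-Ob and H2-Oa the X form was GCAAC, in H2-DMb2 GATGATG, and in H2-Eb1 both, 1 base apart. H2-Ob, whose levels are set apart from the other members below, holds the pair as the other 4 do. H2-DMa lacks it, and its levels run with those of the other members below. Any link between the pair and the levels was not tested.

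Libraries held between 2693399 and 8146613 counted 3′ tags, so 3 counts, the most that a true level read as 0 may hide, correspond to 0.368 to 1.11 CPM (a gene's counts scaled to a library total of 1000000), and no 2 libraries agreed within sampling noise. The kit counts the ends of transcripts, so Ciita transcripts from different promoters cannot be told apart, and reads may be split uncertainly between the near-identical neighbours H2-DMb1 and H2-DMb2. Tumour cells were not described as sorted: in these bulk samples fewer class II-bearing cells and less class II RNA per cell cannot be told apart. RNA of Cd79b, a chain of the B cell receptor complex, was present in every library, at 224 to 1052 CPM. So was RNA of Pax5, at 73.0 to 1028.5 CPM. Other B cell genes came near 0 in some libraries: Blk ran from 0.899 to 485 CPM and Fcmr from 0 to 931 CPM. None of them is used here as a measure of tumour cell content. Ccnd2 ranged over 1181 to 2127 CPM among MCL-like primaries and 451 to 1953 CPM among the Ccnd2 non-MCL ones, against 5.49 to 1028 CPM in the p53-only libraries. In both libraries labelled Ccnd2 non-MCL transplant it stood at 45.8 and 83.4 CPM, below 5 of the 7 p53-only libraries. Their genotype is taken from the labels, and whether the transgene's own transcript end counts as Ccnd2 is not given in the sources used here.

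H2-Aa encodes the alpha chain of I-A, the main class II molecule of these mice (chromosome 17, 34282744 to 34287823, minus strand, GRCm38). In the MCL-like primaries it stood at 3222, 3237, 889 and 2567 CPM in replicates 1 to 4. The 3 Ccnd2 non-MCL primaries, of the same genotype, had 46.4, 78.2 and 135 CPM, and the 2 groups did not overlap. The p53-only libraries had 428, 1369.5, 2709.5, 24.7, 1493, 249 and 256 CPM in replicates 1 to 7, a range that covers nearly the whole span of the other primaries. The MCL-like transplants stood at 1978, 2202, 1507, 1582, 1299 and 2565 CPM, and both Ccnd2 non-MCL transplants were high as well, at 1047 and 2783 CPM. By mouse, the means were 2479 ± 1105 CPM in MCL-like primaries (SD, n = 4), 1871 ± 565 in the 4 mice behind the MCL-like transplants (n = 4), 846 ± 1034 in p53-only primaries (n = 6) and 86.6 ± 44.9 in Ccnd2 non-MCL primaries (n = 3). Neighbours in that order differed by less than the larger of their SDs. The 1 mouse behind the Ccnd2 non-MCL transplants had 1932 CPM.

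H2-Ab1, the I-A beta chain (chromosome 17, 34257689 to 34269419, plus strand), followed a similar pattern. It stood at 1614, 1385, 382 and 1601 CPM in the MCL-like primaries and at 96.5, 122 and 109 CPM in the Ccnd2 non-MCL primaries. The p53-only libraries had 373, 1215, 1603, 48.1, 1059.5, 188 and 167 CPM. Replicates 2, 3 and 5 of that group were in the range of the MCL-like tumours, and replicate 4 was the lowest of all 22 libraries. Transplants had 560.3 to 1313 CPM when MCL-like and 769 and 1285 CPM when Ccnd2 non-MCL.

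H2-Eb1 encodes the I-E beta chain (chromosome 17, 34305867 to 34316674, plus strand), which these mice transcribe although no RNA of an alpha partner was seen. Its MCL-like primary values were 2127, 1729, 589 and 2072 CPM against 20.8, 47.1 and 137 CPM in the Ccnd2 non-MCL primaries. In the p53-only primaries it stood at 330.1, 1048, 1674, 21.4, 1696, 157 and 196 CPM. MCL-like transplants ranged over 671 to 1608 CPM and the Ccnd2 non-MCL transplants had 829 and 1619.7 CPM. The related locus H2-Eb2, which is no member, stood at 0 to 15.2 CPM and was called in no comparison.

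Cd74, the invariant chain that guides class II to endosomes (chromosome 18, 60803848 to 60812652, plus strand), stood at 3132, 1704, 839 and 1232 CPM in the MCL-like primaries and 213, 76.7 and 91.6 CPM in the Ccnd2 non-MCL primaries. The p53-only libraries had 428, 897, 1162, 9.89, 462, 56.9 and 114 CPM. MCL-like transplants 1 and 2, both from the mouse of primary replicate 1, held 3674 and 3916 CPM, and transplants 3 to 6 held 954 to 1423 CPM. The Ccnd2 non-MCL transplants had 1288 and 1991 CPM. Set against the sum of H2-Aa, H2-Ab1 and H2-Eb1 in the same library, Cd74 was 0.836 and 0.818 in those 2 transplants, 0.197 to 0.451 in MCL-like primaries and 0.0957 to 0.379 in p53-only primaries. The highest of these ratios, 1.3, belonged to Ccnd2 non-MCL replicate 1, in which the other chains were low.

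**Figure D1:**
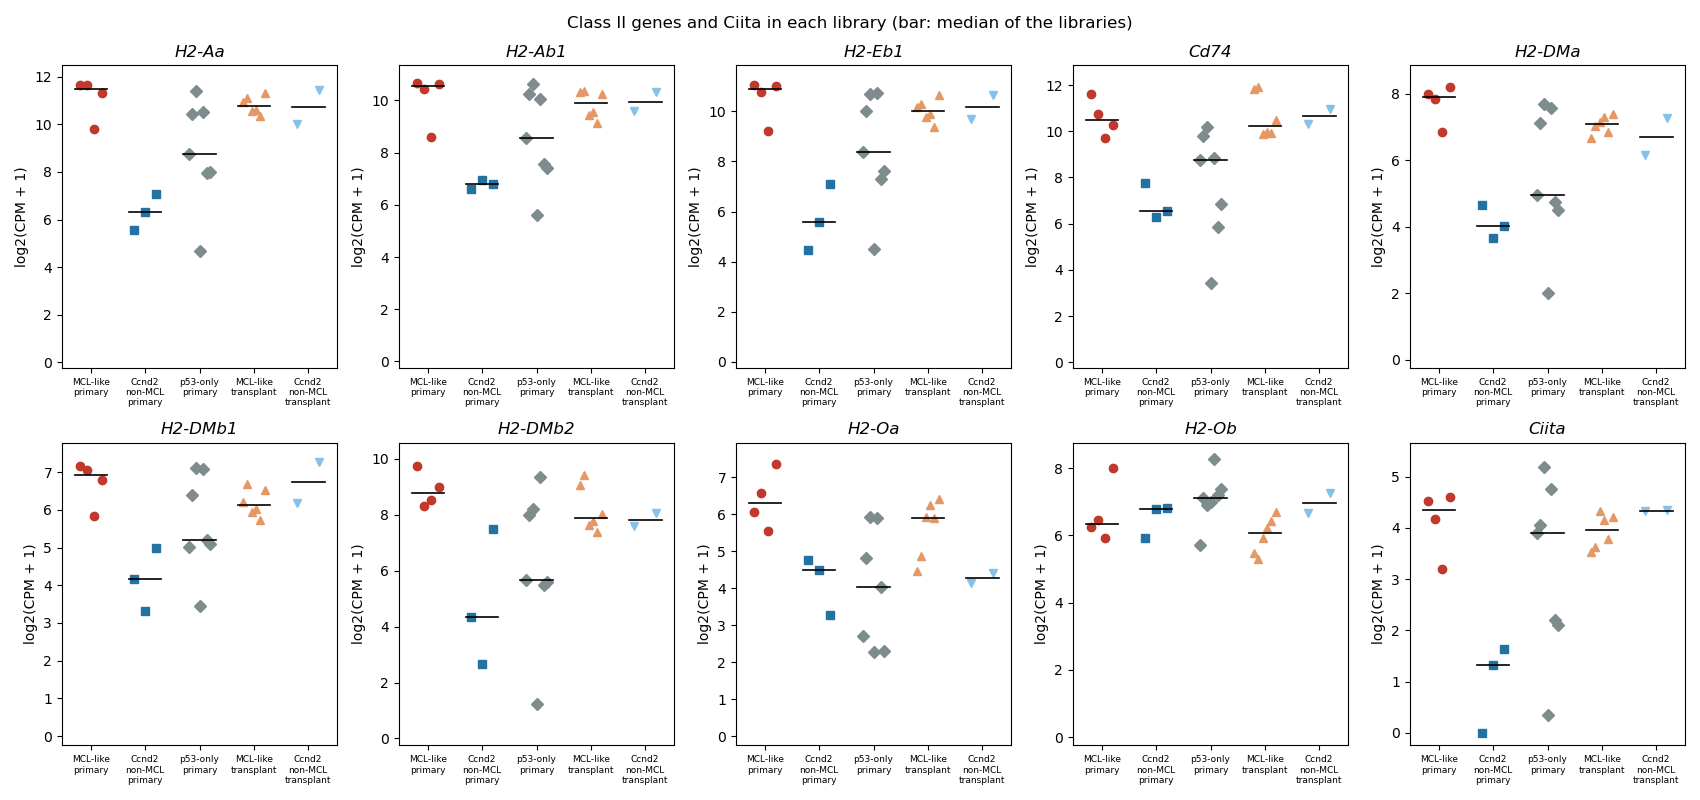
Level of each of the 10 genes in every library, as log2(CPM + 1), in 5 groups; each point is 1 library and each bar the median of its group. In 9 panels the 4 MCL-like primaries lie above the 3 Ccnd2 non-MCL primaries, and in the H2-Ob panel the groups overlap.

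DM loads peptide onto class II, and its genes varied with the chains they serve. H2-DMa, the alpha chain (chromosome 17, 34119541 to 34139101, plus strand), stood at 252, 228, 114 and 294 CPM in the MCL-like group and 24.1, 11.7 and 15.1 CPM in Ccnd2 non-MCL primaries. In the p53-only libraries it had 29.7, 138, 204, 3.02, 189, 25.9 and 21.6 CPM. The transplants ranged over 100.4 to 166 CPM (MCL-like) and had 69.8 and 154 CPM (Ccnd2 non-MCL). H2-DMb1, 1 of the 2 beta chain genes (chromosome 17, 34153072 to 34160230, plus strand), had 143, 132, 56.7 and 109 CPM in the MCL-like group, 17.1, 8.99 and 30.8 CPM in Ccnd2 non-MCL and 9.89 to 138 CPM in p53-only primaries. H2-DMb2, the other (chromosome 17, 34143307 to 34151555, plus strand), had 858, 321, 367 and 516 CPM, 19.3, 5.4 and 180.4 CPM and 1.37 to 656 CPM in the same groups. Ccnd2 non-MCL replicate 3 was the high library of its group for H2-DMb2. The ratio of H2-DMb2 to H2-DMb1 within a library ran from 2.43 to 6.49 in MCL-like primaries, 2.84 to 7.34 in their transplants and 0.139 to 4.86 in p53-only primaries, with the paralog caveat above. MCL-like transplants had 52.5 to 103 CPM of H2-DMb1 and 166 to 691 CPM of H2-DMb2, and the Ccnd2 non-MCL transplants 71.95 and 155 CPM and 194 and 266 CPM.

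DO is the B cell restraint on DM, and its 2 chains differed in pattern. H2-Oa, the alpha chain (chromosome 17, 34092340 to 34095234, plus strand), stood at 65.4, 93.9, 45.9 and 164 CPM in the MCL-like primaries, above all 3 Ccnd2 non-MCL primaries at 25.99, 21.6 and 8.59 CPM. The p53-only libraries had 5.58, 27.2, 59.3, 3.85, 58.6, 15.4 and 3.89 CPM, where replicates 3 and 5 reached the MCL-like range. H2-Oa stood at 16.7 and 20.1 CPM in the Ccnd2 non-MCL transplants, whose H2-Aa was high, and the MCL-like transplants had 20.9, 28.2, 59.98, 75.1, 58.02 and 83.9 CPM. H2-Ob, the beta chain (chromosome 17, 34238903 to 34254414, plus strand), was present in every library, at 38.1 to 308 CPM. It stood at 74.9, 86.5, 60.1 and 255 CPM in the MCL-like group, 59.8, 110.0 and 111 CPM in Ccnd2 non-MCL and 51.8, 137, 119, 127, 308, 146 and 165 CPM in p53-only primaries. Even p53-only replicate 4, with 24.7 CPM of H2-Aa, held 126.9 CPM of H2-Ob. The transplants had 38.1 to 103 CPM (MCL-like) and 101 and 152 CPM (Ccnd2 non-MCL).

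The ratio of H2-Ob to H2-Oa within a library, looked at after these values were seen and so given without a test, was 0.921 to 1.55 in the 4 MCL-like primaries and 0.987 to 2.09 in the 6 MCL-like transplants. It was 2.30 to 12.9 in Ccnd2 non-MCL primaries, 2 to 42.3 in p53-only primaries and 6.08 and 7.58 in the Ccnd2 non-MCL transplants. Among primaries the MCL-like ratios all lay below the others. With the transplants included, MCL-like transplant 1 at 2.09 and p53-only replicate 3 at 2 crossed.

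Ciita itself (chromosome 16, 10480059 to 10528418, plus strand) was read at few counts. The MCL-like primaries held 74, 81, 26 and 87 counts, or 22.005, 17.1, 8.23 and 23.4 CPM. The Ccnd2 non-MCL primaries held 0, 5 and 17 counts, or 0, 1.499 and 2.09 CPM, and a count of 0 in the first allows up to 1.11 CPM (3 counts, counting error only). The p53-only libraries had 13.95, 15.7, 35.4, 0.275, 26.2, 3.59 and 3.31 CPM, with a single count in replicate 4. In transplants Ciita stood at 10.5, 11.3, 19.01, 16.7, 12.7 and 17.6 CPM (MCL-like) and 19.05 and 19.3 CPM (Ccnd2 non-MCL). The highest Ciita of all 22 libraries was in p53-only replicate 3, which also had the highest H2-Aa of the non-MCL primaries.

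Summed over the 10 genes, class II took 0.335 to 1.15% of all counts in MCL-like primaries and 0.398 to 0.970% in the MCL-like transplants. Among Ccnd2 non-MCL primaries the sum was 0.0483 to 0.0821%, and in p53-only primaries it ran from 0.0249 to 0.800%. The 2 Ccnd2 non-MCL transplants stood at 0.441 and 0.844%. MCL-like replicate 3 was the lowest MCL-like primary in this sum and in 9 of the 10 genes, all but H2-DMb2.

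The first comparison set MCL-like against Ccnd2 non-MCL primaries, tumours of 1 genotype that differ in immunophenotype. H2-Aa was 32-fold higher in the MCL-like tumours by the fit (log2 fold change 5.00 ± 1.3, SE), and edgeR's quasi-likelihood test gave it an adjusted p of 0.0976, above the 0.05 used to call a gene. Over the 10 genes the log2 fold changes were all positive, from 0.40 for H2-Ob to 5.00, with a median of 3.73 against -0.04 over all 12967 genes tested. H2-Eb1 stood 4.74 ± 1.3 higher on the log2 scale (edgeR adjusted p = 0.105), Cd74 3.93 ± 1.29 (0.149), Ciita 3.90 ± 1.27 (0.144) and H2-DMa 3.83 ± 1.12 (0.122). H2-Ab1 stood 3.64 ± 1.06 higher (edgeR adjusted p = 0.12), H2-DMb2 3.12 ± 1.43 (0.289), H2-DMb1 2.69 ± 0.79 (0.12) and H2-Oa 2.37 ± 0.95 (0.222). H2-Ob differed by 0.40 ± 0.47 (0.705), and without MCL-like replicate 4 by -0.09.

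No member was called, where 0.308% of all genes tested were called in either direction and 0.0617% (8 genes) higher. At an unadjusted p under 0.05, 9 of the 10 passed, as did 16.8% of all genes. The 2 groups did not overlap in 9 members, all but H2-Ob, and 7.58% of all genes tested had the MCL-like tumours wholly above. The call depended on which mice shared the fit and on the tool. In a fit of the 2 groups alone, without the p53-only mice, 8 members passed (not H2-DMb2 and H2-Ob), with an adjusted p for H2-Aa of 0.0072. Leaving out the 5 libraries whose names begin with oTP, all of them non-MCL, also gave 8, DESeq2 gave 7 and limma-voom 0. Leaving out any 1 mouse in the shared fit gave 0.

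The second comparison set the same Ccnd2 non-MCL primaries against the p53-only primaries, non-MCL tumours with and without the transgene. No member was called, nor any of the 12967 genes (0%), with 1330 genes (10.3%) and 6 members at an unadjusted p under 0.05. DESeq2 called 115 genes and 2 members (H2-Aa and H2-Eb1), and limma-voom called 1 gene and no member. All 10 log2 fold changes were negative, with a median of -1.99 against -0.04 over all genes. H2-Aa stood at -3.38 ± 1.16 (edgeR adjusted p = 0.382), Ciita at -3.37 ± 1.2 (0.408), H2-Eb1 at -3.26 ± 1.17 (0.410) and H2-Oa at -0.22 ± 0.83 (0.944). H2-Oa turned positive under limma-voom, at 0.18, and without Ccnd2 non-MCL replicate 3 or p53-only replicate 3 or the p53-only mouse of replicates 2 and 5. No member separated the groups, where 1.98% of genes had the Ccnd2 non-MCL tumours wholly below. The p53-only range was wider than the difference: its lowest library, replicate 4, lay below all 3 Ccnd2 non-MCL tumours in 6 of the 10 genes.

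MCL-like and p53-only primaries differ in genotype and immunophenotype at once, so those 2 labels cannot be told apart in the next comparison. H2-Oa had the lowest adjusted p, at 0.0884 by edgeR, with 2.15 ± 0.73 on the log2 scale. Cd74 stood 2.14 ± 0.92 higher (0.159), H2-DMb2 1.99 ± 1.06 (0.243), H2-DMa 1.65 ± 0.80 (0.201) and H2-Aa 1.62 ± 0.87 (0.248). Ciita differed by 0.53 ± 0.88 (0.728) and by -0.25 without the oTP tumours, and H2-Ob by -0.14 ± 0.39 (0.845). No member was called higher or had the groups apart, where 5.81% of all genes tested were called, 2.95% higher, and 4.77% had the MCL-like tumours wholly above. Median log2 fold change was 1.55 over the members and -0.11 over all genes. H2-Oa passed without p53-only replicate 3 (adjusted p = 0.0289 by edgeR), with DESeq2 and with limma-voom.

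Against all 9 non-MCL primary mice together, MCL-like tumours had the higher fitted level in all 10 genes, although H2-Ob, at 0.07, turned to -0.01 with library size scaling. The members had a median log2 fold change of 2.08 against -0.07 over 12434 genes. No member was called, where 5.51% of all genes were, 3.11% higher. H2-Oa again lay nearest, 2.26 ± 0.63 on the log2 scale at an adjusted p of 0.0502 by edgeR, and next came Cd74 at 2.57 ± 0.87 (0.0899). The count depended most on 1 non-MCL tumour: without p53-only replicate 3, the one richest in class II, edgeR called 5 members (H2-Aa, H2-DMa, H2-DMb1, H2-Oa and Cd74). Without the mouse of p53-only replicates 2 and 5 it called 1, H2-Oa. DESeq2 called 2 members and limma-voom 3. This comparison reuses the MCL-like and non-MCL tumours of the earlier ones and adds no separate evidence.

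**Figure D2:**
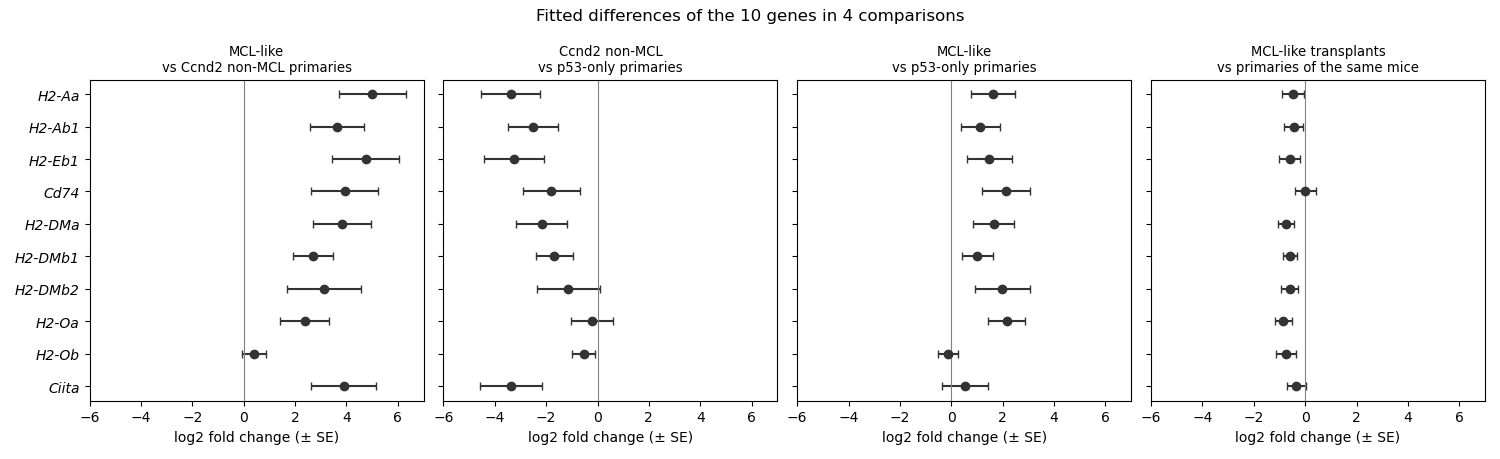
Log2 fold change of each of the 10 genes with its standard error (bars), in 4 comparisons, from edgeR fits; a value right of the vertical line is higher in the group named first. H2-Ob stays between -0.75 and 0.40 in all 4 panels, while H2-Aa runs from -3.38 to 5.00.

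The labels leave a wide spread inside the non-MCL tumours, and the level of Vpreb1, part of the surrogate light chain of pre-B cells, moved against class II. Vpreb1 stood between 458 and 5691 CPM in 6 primary libraries: all 3 Ccnd2 non-MCL and p53-only replicates 4, 6 and 7. In the other 8 it stood at 0.892 to 224 CPM. H2-Aa was 24.7 to 256 CPM in the 6 and 428 to 3237 CPM in the 8. H2-Ab1 ranged from 48.1 to 188 CPM against 373 to 1614, H2-Eb1 from 20.8 to 196 against 330.05 to 2127, and H2-DMa from 3.02 to 25.9 against 29.7 to 294. Cd74 ranged from 9.89 to 213 CPM against 428 to 3132, and Ciita from 0 to 3.59 against 8.23 to 35.4. These 6 members did not overlap across the split, and H2-DMb1, H2-DMb2, H2-Oa and H2-Ob did. Of all 12967 genes tested, 75 (0.578%) lay wholly lower in the 6 libraries. The limit of 400 CPM was set after the values were seen, so this is a description with no test, and the 6 and 8 libraries are not groups of the study.

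By site, the 2 mediastinal tumours (Ccnd2 non-MCL replicate 1 and p53-only replicate 4) and the thymoma (p53-only replicate 6) were among the 6, with H2-Aa at 46.4, 24.7 and 249 CPM, and so were 2 splenic tumours, Ccnd2 non-MCL replicates 2 and 3, at 78.2 and 135.03 CPM. The sixth, p53-only replicate 7, is labelled only as lymphoma. Of the other 8 primaries, 6 were splenic, 1 was mesenteric (MCL-like replicate 1) and 1 was labelled only as lymphoma (p53-only replicate 5), so splenic tumours lay on both sides. The p53-only tumours lay on both sides. Replicates 1, 2, 3 and 5 had little Vpreb1 and H2-Aa of 428 to 2709.5 CPM, while replicates 4, 6 and 7 had 24.7 to 256 CPM. This split nearly follows the library names: those of p53-only replicates 4, 6 and 7 begin with oTP, those of replicates 1, 2 and 3 with TP. Replicate 5, from the mouse of replicate 2, begins with oTP. Among the Ccnd2 non-MCL primaries, all rich in Vpreb1, only replicate 3 begins with oTP. The part of the prefix in this split was not tested. Switched heavy chain RNA stood on both sides too. In the p53-only group, replicate 3 held 4956 CPM of Ighg2b, and replicates 1, 2 and 5 held 273, 192 and 1479 CPM of Ighg1. On the side rich in Vpreb1, p53-only replicate 7 held 385 CPM of Ighg2b and 368 CPM of Igha, and Ccnd2 non-MCL replicate 2 held 510 CPM of Ighg2b. Both Ccnd2 non-MCL transplants were switched, with 3603 and 3178 CPM of Ighg1 against 9.79 and 23.6 CPM of Ighm, and had Vpreb1 at 2.91 and 0.762 CPM and H2-Aa at 1047 and 2783 CPM. Their Ciita, 19.0 and 19.3 CPM, lay in the range of the MCL-like primaries. The primary tumour of that mouse was not analysed here, so whether class II changed on transplantation in it is not known.

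**Figure D3:**
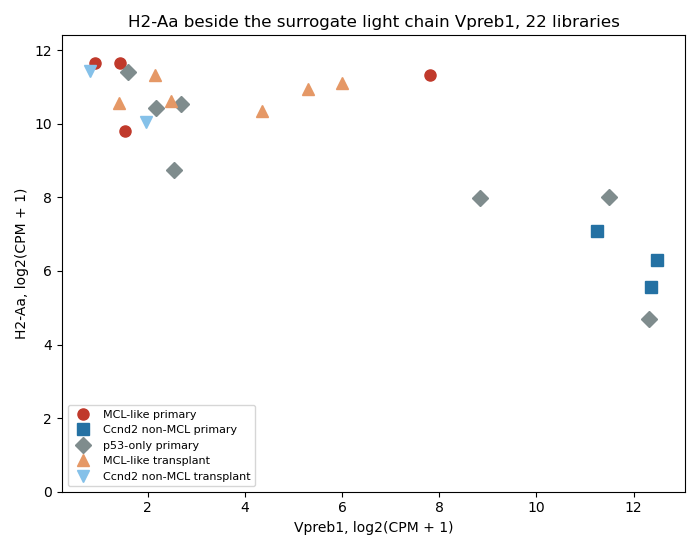
H2-Aa against Vpreb1 in each of the 22 libraries, both as log2(CPM + 1), with 1 symbol per group. The 6 primary libraries with over 400 CPM of Vpreb1 lie at the lower right, with at most 256 CPM of H2-Aa, and every other library has at least 428 CPM.

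Ciita and the other 9 members were then compared across mice. The 13 primary mice were divided at 400 CPM of Vpreb1, and the relation was tested only within each set. Vpreb1 reached 224 CPM in the lower set and began at 458 CPM in the upper, so the sets are not shown to be separate clusters. These sets rest on a limit drawn after the values were seen, and the 6 mice rich in Vpreb1 pool 3 Ccnd2 non-MCL with 3 p53-only mice. Among the 6 mice with over 400 CPM of Vpreb1, Ciita and H2-Eb1 had Pearson's r of 0.961 on log2(CPM + 1) and Spearman's rho of 0.943 (exact two-sided permutation p = 0.00417 and 0.0167, and 0.0375 for r after Benjamini-Hochberg adjustment over 9 relations). Without the 2 mice farthest from the median of Ciita, r was 0.871. It was the only 1 of the 9 relations to pass, with 4 at an unadjusted p under 0.05. The call ended with a pseudocount of 10 (adjusted exact permutation p = 0.05), and with TMM-scaled CPM 2 relations passed. For H2-Aa r was 0.934 (exact permutation p = 0.0125, adjusted 0.0563). For Cd74 r was 0.139 and for H2-Oa -0.207, neither passing (adjusted exact permutation p = 0.839 and 0.739). Ciita rests on 0 to 18 counts a library in these 6 mice.

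Among the 7 mice with less Vpreb1, none of the 9 relations passed after adjustment. The strongest was with H2-Ab1, at r = 0.834 and rho = 0.821 (exact permutation p = 0.00714 and 0.0341, adjusted 0.0643 for r), and r was 0.871 without the 2 farthest mice. H2-Aa gave r = 0.648 and Cd74 0.393 (adjusted exact permutation p = 0.279 and 0.446).

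**Figure D4:**
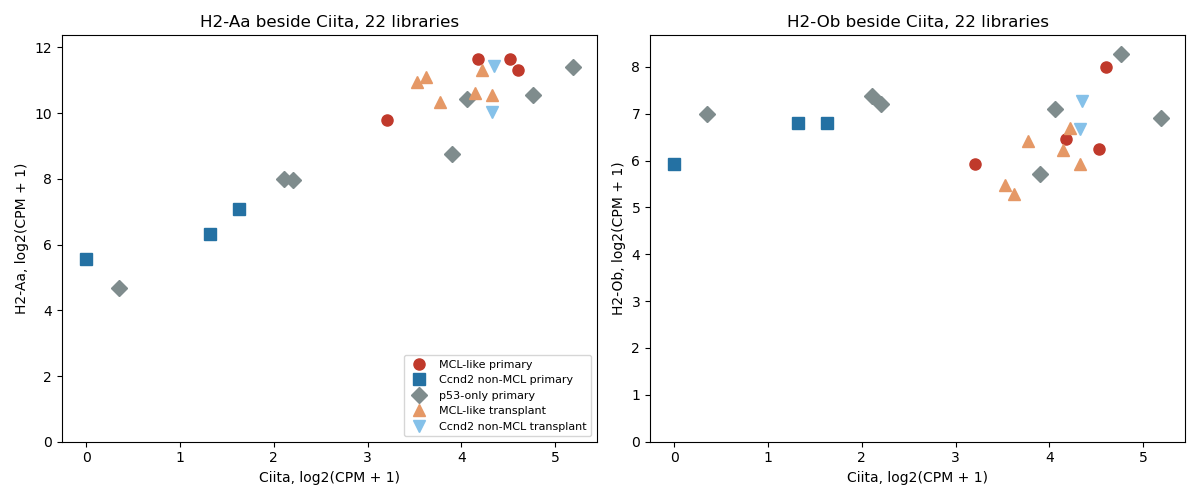
H2-Aa (left) and H2-Ob (right) against Ciita in each of the 22 libraries, all as log2(CPM + 1), with 1 symbol per group. Libraries with at most 3.59 CPM of Ciita had at most 256 CPM of H2-Aa, while H2-Ob stood at 59.8 CPM or more even in the library with no Ciita count.

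Members differed in how closely they followed the rest. Across the 13 primary mice, the Pearson correlation of each member with the mean log2(CPM + 1) of the other 9 was 0.984 for H2-Aa, 0.980 for H2-DMa, 0.977 for H2-Ab1, 0.971 for H2-Eb1 and 0.966 for H2-DMb1. It was 0.921 for Ciita, 0.914 for Cd74, 0.906 for H2-DMb2, 0.771 for H2-Oa and 0.0937 for H2-Ob. These values are descriptions with no test, since they span both sets of mice described above. Among 8521 other genes with a mean of at least 10 CPM, Ctsh, an endosomal cathepsin, was most like the mean of the 10 (r = 0.933). Rasgrp1 (0.928), Tlr1 (0.900), Rgs19 (0.900), Nuak2 (0.894), March1 (0.888), Setbp1 (0.886) and Cd2 (0.883) came next. March1 is the ubiquitin ligase that removes class II from the cell surface. The least like were Thra (-0.914), Il7r (-0.912), the receptor of pro-B and pre-B cells, Elof1 (-0.909) and Rragd (-0.894).

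No gene of the complex that recruits Ciita to DNA passed the test. The 7 genes of the complex are Rfx5, Rfxank, Rfxap, Nfya, Nfyb, Nfyc and Creb1, none was called in any of the 5 comparisons, and their summed level was 276 to 405 CPM in MCL-like, 315 to 455 in Ccnd2 non-MCL and 342 to 505 in p53-only primaries. In the 6 primaries with at most 3.59 CPM of Ciita, Rfx5 varied widely. It stood at 24.1, 27.0 and 84.0 CPM in Ccnd2 non-MCL replicates 1, 2 and 3. In p53-only replicates 4, 6 and 7 it stood at 106, 86.8 and 80.6 CPM. The other 8 primaries had 27.1 to 97.1 CPM of Rfx5. Lists of related genes are read against the 5.81% and 5.51% of all genes called in MCL-like against p53-only and against all non-MCL primaries: 1 called gene in a list of 14 or 15 is near that background. Of 14 regulators of Ciita, 1 was called: Zbtb32, a zinc finger repressor, was higher in MCL-like tumours than in p53-only tumours (log2 fold change 4.65 ± 1.17, edgeR adjusted p = 0.037) and than in all non-MCL tumours (3.82 ± 1.02, 0.0442). Irf4 stood at 154 to 316 CPM in the 6 libraries rich in Vpreb1 and 58.2 to 135 CPM in the other 8 primaries, without being called in any comparison. That split was set after the values were seen, and the share of all genes wholly higher in the 6 was not computed. The Irf4 ranges are therefore a description, and any part of Irf4 in class II levels was not tested.

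Of 14 genes of class II processing and turnover, 1 passed, in 1 comparison: Lamp2, a lysosomal membrane protein, at 1.01 ± 0.27 on the log2 scale in MCL-like against all non-MCL primaries (edgeR adjusted p = 0.0427). Ctss, the protease that trims the invariant chain in B cells, was highest outside the MCL-like group, at 4779.7 CPM in p53-only replicate 5 against 499 to 1330.4 CPM in MCL-like primaries. Of 8 tested genes for contact with T cells, Cd274 (PD-L1) was higher in MCL-like than in p53-only primaries by 2.57 ± 0.52 and than in all non-MCL primaries by 2.75 ± 0.46 (edgeR adjusted p = 0.0154 and 0.00808), and Icam1, an adhesion molecule, by 1.56 ± 0.40 and 1.49 ± 0.36 (0.0368 and 0.0293). The other 6 did not pass in any comparison. In class I presentation 1 of 15 genes passed in the same 2 comparisons, Tapbp, which lies beside the class II genes on chromosome 17 and is also the 1 called of 10 tested non-class-II genes of the region (1.43 ± 0.38 and 1.38 ± 0.34, edgeR adjusted p = 0.044 and 0.033). None of the 14 interferon gamma response genes was called, with medians of 1.19, 1.5 and 1.39 in the 3 comparisons of MCL-like with Ccnd2 non-MCL, p53-only and all non-MCL primaries.

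Some genes of the B lineage lists passed the test. Of 10 early B cell genes, Vpreb3 was lower in MCL-like than in Ccnd2 non-MCL primaries (log2 fold change -4.24 ± 0.75, edgeR adjusted p = 0.0471), a call that ended without any 1 of 7 of the 13 mice. Against p53-only primaries 4 were lower (Vpreb3, Rag1, Sox4 and Il7r), and against all non-MCL primaries these 4 and Rag2. Rag1, part of the enzyme that cuts antigen receptor genes, stood at 0 to 0.317 CPM in MCL-like primaries, 53.4 to 204 CPM in Ccnd2 non-MCL primaries and 0 to 360 CPM in p53-only libraries. Of 12 general B cell genes, Cd37 was higher against p53-only primaries (2.17 ± 0.28, edgeR adjusted p = 0.00272), and Cd37 and Ms4a1 (CD20) were higher against all non-MCL primaries (1.98 ± 0.28 and 3.23 ± 0.84, 0.00475 and 0.041). Of 12 tested heavy chain and plasma cell genes, Igha was lower against p53-only primaries (-3.81 ± 1.0, edgeR adjusted p = 0.0437). Of the 23 calls of listed genes in these comparisons, 18 were lost when at least 1 of the 13 mice was left out. The 5 kept were Cd37 in both comparisons and Cd274, Vpreb3 and Sox4 against all non-MCL primaries. Without any 1 mouse, edgeR's adjusted p reached at most 0.166 over the 23, the value of Lamp2. Cd37 in both comparisons and Cd274 against all non-MCL primaries passed in every alternative run.

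Genes used as markers of dendritic cells, macrophages, T cells and thymic epithelium also left RNA in these libraries. Which cells made this RNA was not tested. The summed level of 10 dendritic cell markers was 54.5 to 199 CPM in MCL-like, 19.3 to 82.4 in Ccnd2 non-MCL and 8.24 to 155 in p53-only primaries, and that of 12 macrophage markers 632 to 1364, 747 to 1758 and 320 to 1750. The 10 T cell markers summed to 254 to 478, 44.9 to 89.6 and 18.3 to 533 CPM. The 7 thymic epithelial markers summed to at most 23.4 CPM in primaries. None of the markers tested was called in any comparison. In all, 7 of 7 dendritic, 7 of 12 macrophage and 9 of 10 T cell markers had positive log2 fold changes in MCL-like against Ccnd2 non-MCL primaries, with medians of 0.89, 0.17 and 3.24. Itgax (CD11c of dendritic cells) stood at 8.62 to 24.3 CPM in the MCL-like group and 1.49 to 23.2 CPM in Ccnd2 non-MCL primaries, Cd3e of T cells at 2.38 to 34.8 and 0.371 to 2.95, and C1qa of macrophages at 28.2 to 114 and 59.0 to 151, so none of the 3 was at 0. The dendritic and macrophage sums of the 2 groups overlapped, whereas the T cell sums did not (254 to 478 against 44.9 to 89.6 CPM). Ccl22, picked after its value was seen, gave 142 CPM of the dendritic sum in MCL-like replicate 3. In the other MCL-like primaries Ccl22 stood at 0.892 to 14.1 CPM. In MCL-like replicate 1, which had 3222 CPM of H2-Aa, Cd3e stood at 2.38 CPM, inside the Ccnd2 non-MCL range. Cd8a, Cd8b1 and Trbc2 of that library lay inside theirs too, and Lat lay below. Its Cd3d, Cd3g, Cd4 and Trac, at 11.9, 11.9, 27.1 and 5.35 CPM, lay above all 3 Ccnd2 non-MCL primaries. Those reached at most 6.01, 4.42, 21.5 and 5.28 CPM. Cd28, picked after its value was seen, gave 212 CPM of the T cell sum of that library. The part of these cells in the result was not tested. In the transplants, T cell markers stood at 16.9 to 113 CPM, dendritic cell markers at 47.1 to 116 CPM and macrophage markers at 230 to 729 CPM in the MCL-like libraries, with H2-Aa at 1299 to 2565 CPM.

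The last comparison followed 3 MCL-like tumours into NSG hosts, with the mouse as a block. All 10 log2 fold changes were below 0, although Cd74 turned to 0.051 without the block and 0.11 without MCL-like replicate 2. The median was -0.60 against 0.01 over all 12020 genes, and none was called. No gene at all was called (0%), with 656 genes (5.46%) and 2 members at an unadjusted p under 0.05, while DESeq2 called 32 genes and no member. H2-Oa stood at -0.85 ± 0.33 (edgeR adjusted p = 0.82), H2-DMa at -0.76 ± 0.31 (0.82), H2-Ob at -0.75 ± 0.39 (0.82), H2-Aa at -0.46 ± 0.43 (0.849) and Ciita at -0.34 ± 0.38 (0.867). Cd74 stood at -0.0024 ± 0.41 (edgeR adjusted p = 0.9997). In 7 members (all but H2-Ob, Cd74 and Ciita) the transplant was the lower in all 3 mice, as it was in 15% of all genes tested. Beside them, all 10 T cell markers had negative log2 fold changes (median -2.29), as did 11 of 12 macrophage markers (-0.94) and 6 of 7 dendritic markers (-1.33), none called. Their part in the members' differences was not tested. MCL-like transplant 5, whose primary was not profiled, had the lowest H2-Aa of the 6, at 1299 CPM.

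**Figure D5:**
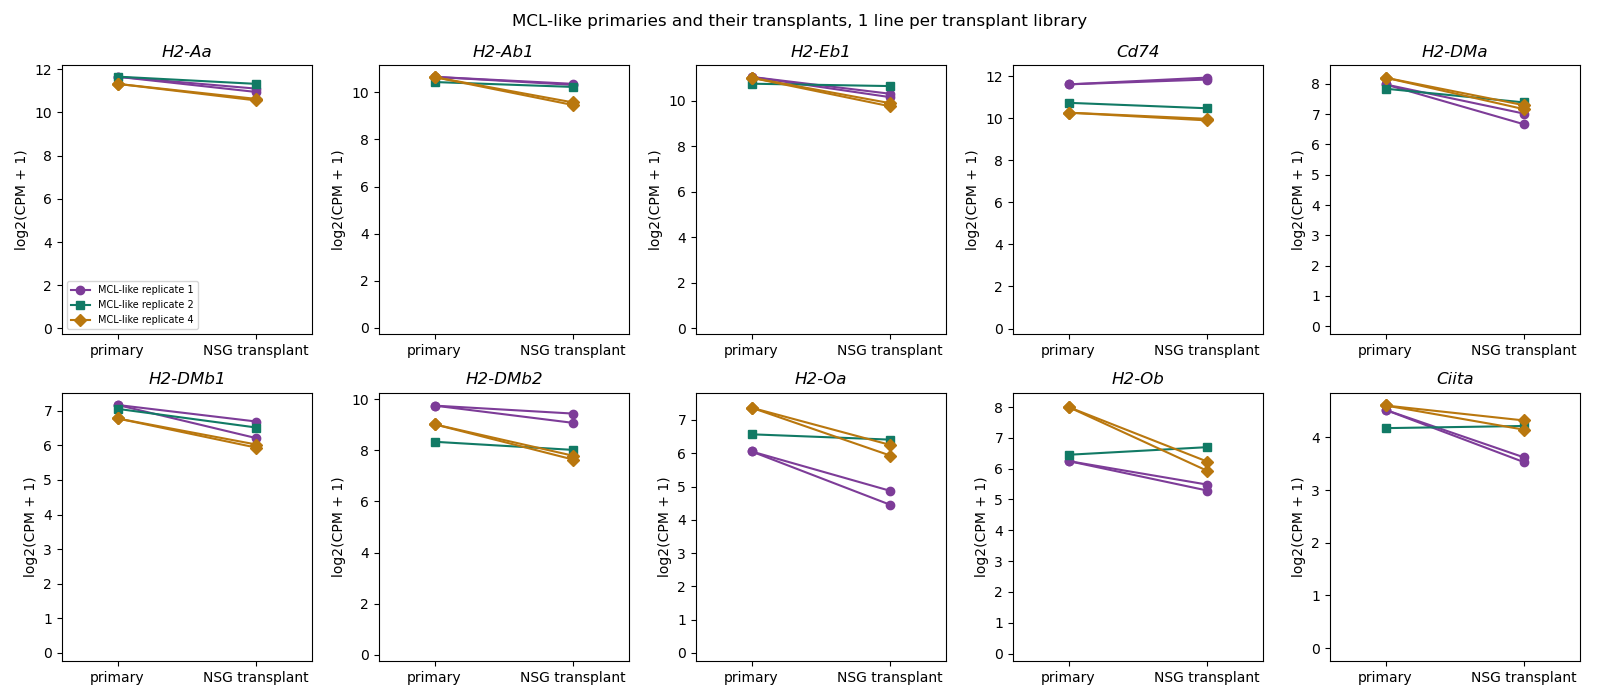
The 10 genes in 3 MCL-like primaries and their NSG transplants, as log2(CPM + 1); each line joins a primary to 1 transplant library and each colour and symbol is 1 mouse. H2-DMa is lower at the transplant end of every line, with 228 to 294 CPM in the primaries and 100.4 to 166 CPM in the transplants, while Cd74 of replicate 1 goes from 3132 to 3674 and 3916 CPM.

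Between the transplants, MCL-like and Ccnd2 non-MCL tumours can only be set side by side, since the second come from 1 mouse. H2-Aa of the 2 overlapped with the 6. H2-Oa, at 16.7 and 20.1 CPM, lay just below the lowest MCL-like transplant at 20.9 CPM, and Ciita, at 19.05 and 19.3 CPM, just above the highest at 19.01 CPM. Both gaps were small. The share of all genes that separate these libraries was not computed, so the gaps are descriptions only. H2-DMb1 reached 72.0 and 154.8 CPM against 52.5 to 102.5 CPM.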

How the data were processed

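Lymphoma RNA was read with 3′ mRNA libraries (QuantSeq reverse kit, per the labels' protocols). The deposited table holds raw counts per Ensembl gene for 22 libraries, made by the authors with FastQC and STAR on GRCm38, per the submitters' processing notes; the counting tool is not given in the sources used here. Symbols were matched for 52403 of 52636 identifiers. Libraries of 1 mouse were summed, and groups came from the immunophenotype and genotype labels. Differences were tested with edgeR 4.0.16 (TMM, filterByExpr, robust quasi-likelihood fit in R 4.3.3, Benjamini-Hochberg over all genes tested, called under 0.05), with the 3 primary groups in 1 fit. MCL-like against all non-MCL primaries was a fit of 2 groups, and transplants against primaries had the mouse as a block. DESeq2 1.42.0, limma-voom 3.58.1, other scalings, filters and left-out mice were alternatives. CPM are counts scaled to each library's total, and the fits were tested on simulated data. Replicates are separate mice, except that 1 mouse gave p53-only replicates 2 and 5 and several transplants share a mouse. The transplants pair with primaries by the mouse named in the labels, and deviations of the pairs correlated at 0.281, 0.389 and 0.274 over 8566 genes.

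The members, the 16 gene lists, the naming rules and the motifs were chosen with earlier results of these data known. Named were all members, up to 4 called genes of each list in each comparison by adjusted p, a set of context genes by level, and the 8 genes most and 4 least like the members. The ratios of members, the Vpreb1 limit and the listing by tumour site were chosen after their values were seen.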

Additional observations from a re-analysis of the deposited data

Results flagged for a closer look

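H2-Ob in MCL-like primary replicate 4 stood at 255 CPM, far from the other 3 MCL-like primaries, which had 60.1 to 86.5 CPM. Cd74 in the mouse of MCL-like transplants 1 and 2 stood at 3780 CPM with both libraries summed, far from the other 3 transplanted mice, which had 966 to 1423 CPM. These were the 2 of 30 tests of members by group in which 1 mouse stood that far from the rest, and chance alone flags about 1 in 20.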

How the results depend on the processing

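Each result was recomputed with other scalings, filters, tools, covariates and left-out mice. Of 970 values for single members under an alternative, 911 kept their direction and their side of the threshold, 41 came past it and 18 changed sign. Of 505 such values for the called genes of the lists, 165 fell short of the threshold and none changed sign, and of 1455 counts of calls in a list 236 moved by over 1.5 times. H2-Aa in MCL-like against Ccnd2 non-MCL primaries ranged from 4.48 to 5.48 on the log2 scale (edgeR, DESeq2 or limma adjusted p 4.75e-05 to 0.229). Library size scaling moved the median of all genes from -0.04 to -0.16 in that comparison and from -0.07 to -0.22 against all non-MCL primaries.

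Genes called in MCL-like against Ccnd2 non-MCL primaries (40) became 835 with DESeq2, 22 with RLE factors, 17 with limma-voom, 13 with every library as its own sample, 552 without the oTP tumours, 25 with the name prefix as a covariate, 371 in the fit of 2 groups, 0 to 50 without 1 mouse (0 without MCL-like replicate 3) and 54 without p53-only replicates 2 and 5. Members called (0) became 7, 8 and 8 with DESeq2, without oTP and in the fit of 2 groups, and stayed at 0 without any 1 mouse. In Ccnd2 non-MCL against p53-only primaries, 0 genes became 115 with DESeq2, 2 with no filter, 1 with limma-voom, 116 without oTP and 0 to 8 without 1 mouse. Members called became 2 with DESeq2 and 2 without oTP. In MCL-like against p53-only primaries, 753 genes became 1827 with DESeq2, 116 without oTP, 289 with the prefix and 188 to 1117 without 1 mouse. Members called became 1 with DESeq2, 1 with limma-voom and 0 to 1 without 1 mouse. Against all non-MCL primaries, 685 became 1698 with DESeq2, 246 without oTP, 197 with the prefix and 176 to 1065 without 1 mouse. Members called became 2 with DESeq2, 3 with limma-voom and 0 to 5 without 1 mouse. With the low-count filter of 3 groups, chosen after seeing the data, 716 genes and no member were called. In transplants, 0 genes became 32 with DESeq2, 35 with no filter and 0 to 14 without 1 mouse. Without the replicate block the pairing left 0 genes and 0 members called, and Cd74 turned from -0.0024 to 0.051. The cause was not tested.

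Signs turned as follows. H2-Ob against Ccnd2 non-MCL primaries was -0.087 to 0.61 without 1 mouse, and against p53-only primaries 0.19 without oTP, 0.094 with the prefix, -0.60 to 0.070 without 1 mouse and 0.067 without replicates 2 and 5. H2-Ob against all non-MCL primaries was -0.013 with library size scaling, -0.0029 with no filter, -0.076 with every library apart and -0.45 to 0.23 without 1 mouse. H2-Oa in Ccnd2 non-MCL against p53-only primaries was 0.18 with limma-voom, -0.56 to 0.44 without 1 mouse and 0.021 without p53-only replicates 2 and 5. Ciita against p53-only primaries was -0.25 without oTP. Cd74 in transplants was -0.13 to 0.11 without 1 mouse. In the 6 mice rich in Vpreb1, r of Ciita and Cd74 was -0.0067 with a pseudocount of 0.1, and relations past the threshold (1) became 0 with a pseudocount of 10 and 2 with TMM-scaled CPM.

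The labels' replicate numbers other than the transplants' mice were given in accession order and pair nothing. Ciita is limited by depth: 3 counts in the Ccnd2 non-MCL primaries correspond to 0.368 to 1.11 CPM.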
